A study of Mus musculus with 24 samples.

Results

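Genes of muscle protein breakdown and 2 metal-binding genes that respond to stress were followed in tibialis anterior, a muscle of the lower leg, with 1-colour arrays. The members were all probes that the platform annotation names FBXO32, TRIM63, FBXO30, FBXO40, FOXO1, FOXO3, MT1, MT2, CTSL or BNIP3. They came to 11 probes for 10 genes, of 26423 probes and 17742 named genes on the array. Ctsl had 2 probes and every other member 1. All mice were 6 weeks old, of the mixed C57BL6/J;129S1/SvImJ background, and carried Myf6 cre, a driver active in muscle fibres. The 4 controls were Myf6 cre/+; Hira flox/+ and the 4 animals labelled Hira CKO were Myf6 cre/+; Hira flox/-. Hira CKO mice therefore also differed from controls in cells without cre, by a null in place of an intact Hira allele beside the floxed one. Each animal was measured on 3 arrays of its RNA, which were averaged, so n is 4 animals per group throughout. Values are normalized intensities, given for an animal as the mean of its 3 arrays and for a group as mean ± SD of 4 animals.

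Muscle loses protein mainly through the ubiquitin-proteasome system and the autophagy-lysosome system. Fbxo32 (atrogin-1) and Trim63 (MuRF1) are muscle ubiquitin ligases that rise in fasting, denervation and glucocorticoid excess, and the Foxo transcription factors, held out of the nucleus by Akt signalling, switch on both, along with genes of autophagy. Metallothioneins are small cysteine-rich proteins that bind zinc and copper, are induced by metals, glucocorticoids and oxidative stress, and rise in many forms of wasting muscle.

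A probe was called where its limma adjusted p, over all probes on the array, was under 0.05. Of the 11 member probes 0 were called higher in Hira CKO and 1 was called lower. Over the whole array 20.6% of probes were called, 10.5% higher and 10.03% lower, so the members' count was not above that of other probes. The members' median log2 difference (Hira CKO minus control) was 0.03, against 0.012 over all probes. The groups did not overlap at 1 of the 11 member probes, against 24.8% of all probes. Log2 differences are on the scale of log2(intensity + 16). Since whole muscle was used, fewer cells of a type and less RNA per cell cannot be told apart. All 11 probes lay above the lowest 30% of probes by mean level.

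The Hira probe itself was not lower in the knockout group, at 495 ± 48.9 in controls and 558 ± 38.9 in Hira CKO (limma adjusted p 0.193). The sources used here do not give where it lies relative to the deleted part. Directions below rest on the labels. Across the 24 arrays, values correlated at a median of 0.994 between arrays of the same animal, 0.989 between animals of the same group and 0.981 between groups. Muscle fibre markers were at high levels, as the tissue label gives: 8 of 11 listed markers were measured, and their summed intensity ran from 1566058 to 1815003 in controls and from 1484422 to 1581148 in Hira CKO. Of these 8 markers, 2 were called lower, Acta1, skeletal actin (−0.55 log2), and Ckm, muscle creatine kinase (−0.28 log2). Over all genes 10.2% were called lower at the brightest probe of each gene. Dropping each of the 8 animals in turn removed the call of Ckm 6 times and that of Acta1 0 times. Whether the fall of these fibre transcripts bears on the members was not tested.

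**Figure D1:**
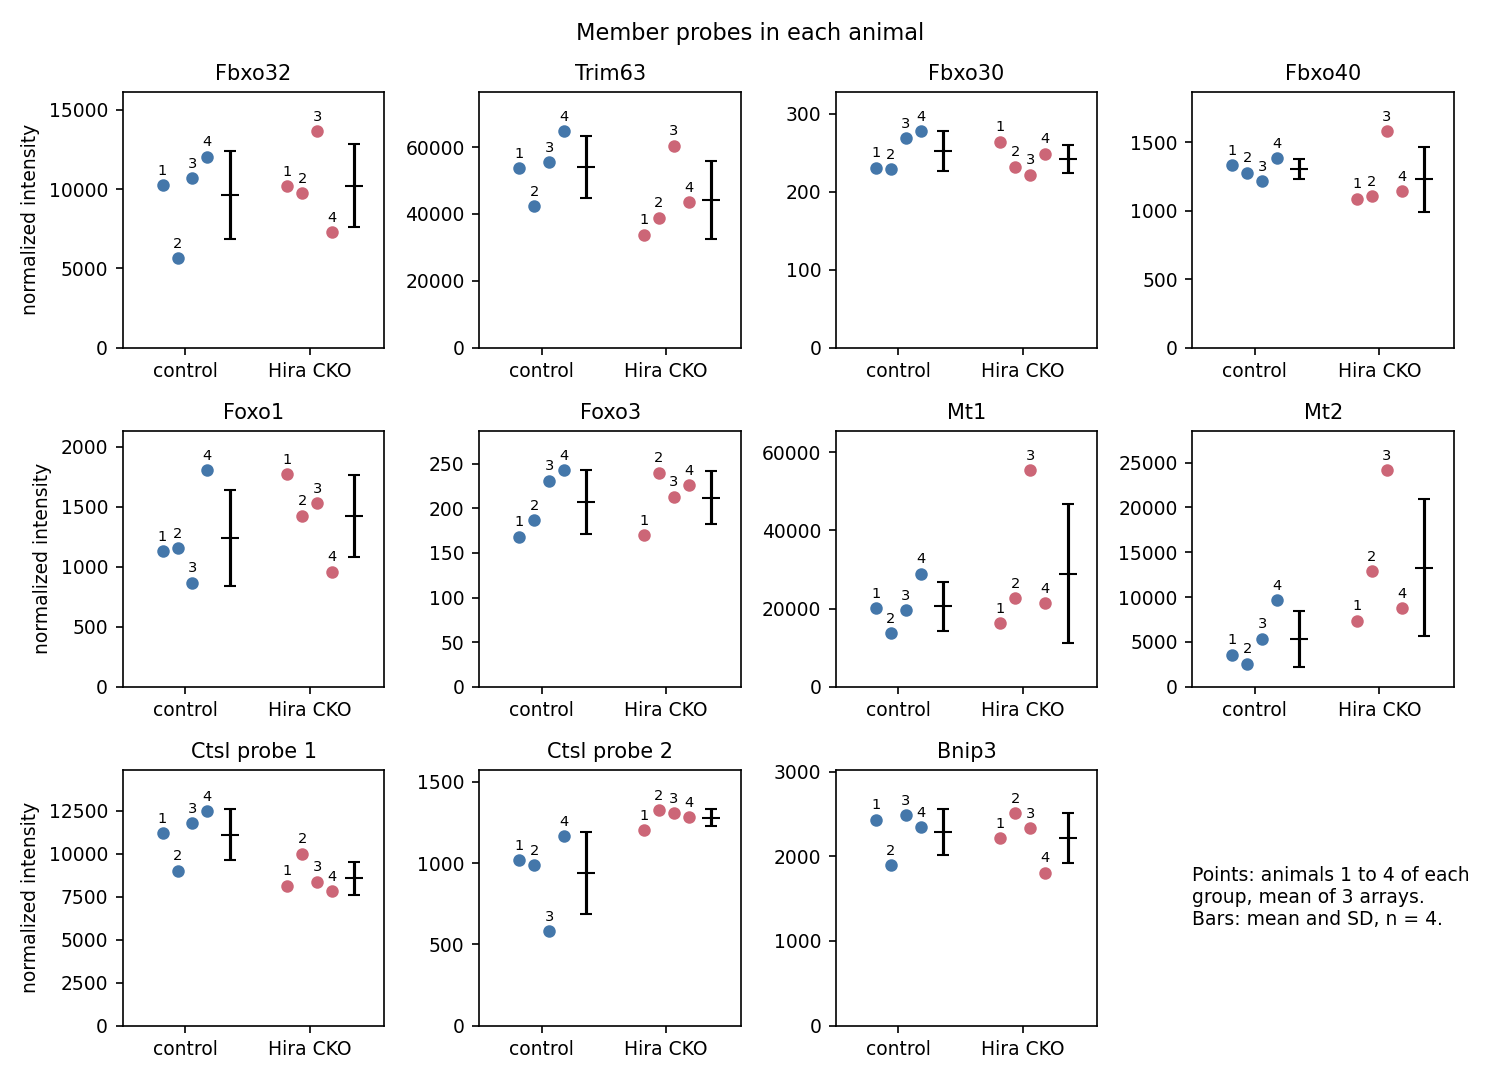
Normalized intensity of each member probe (vertical axes start at 0) in control and Hira CKO animals. Numbered points are animals, each the mean of 3 arrays, and bars give the group mean and SD (n = 4). The groups overlap in every panel except Ctsl probe 2, and control animal 2 and Hira CKO animal 3 stand at opposite ends for Fbxo32, Mt1 and Mt2.

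Among the ubiquitin ligases, Fbxo32, the substrate-binding F-box protein of an SCF ligase, was at 10226, 5644, 10682 and 12046 in control animals 1 to 4. It was at 10180, 9728, 13661 and 7294 in Hira CKO animals 1 to 4. The groups overlapped almost fully, with the lowest value in a control and the highest in a knockout. Group levels were 9650 ± 2780 in controls and 10216 ± 2623 in Hira CKO (SD, n = 4). The difference of 0.10 log2 (SE 0.245, 95% interval −0.44 to 0.65) was not called (limma adjusted p 0.802). The spread was between animals and not between arrays: the median SD of the 3 arrays of an animal was 0.037 log2, and the SD between animals of a group was 0.433 log2. The sign rested on single animals, at −0.14 without control animal 2 and −0.05 without Hira CKO animal 3.

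Trim63, a RING-finger ligase of the sarcomere, was at 53724, 42325, 55427 and 64790 in controls. In Hira CKO it was at 33796, 38919, 60414 and 43445. Knockout animals 1 and 2 lay below every control, while animal 3 lay within the control range. The means were 54067 ± 9216 and 44143 ± 11541, and the difference of −0.31 log2 (SE 0.18, 95% interval −0.71 to 0.09) was not called (limma adjusted p 0.245, exact permutation p 0.229). The size rested on single animals: it was −0.47 log2 (adjusted p 0.0548) without Hira CKO animal 3, −0.19 (0.496) without Hira CKO animal 1 and −0.22 (0.456) without control animal 4.

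The promoter of Trim63 is shown because Foxo factors are known to act on this gene. Each window printed here is the RefSeq window of 300 bases, from 250 before to 50 after a gene's start, on GRCm38.p6. The core of a Foxo site, GTAAACA, was searched on both strands. The Trim63 window (chr4:134314870-134315169, plus strand) held 1 match, in capitals, on the minus strand from −194 to −188 relative to the start, counted with the start base as 0. The same core was in 3.65% of the 32851 windows of all genes and in none of the windows of Fbxo30, Fbxo40, Foxo1, Foxo3, Mt1, Mt2, Ctsl and Bnip3. Windows were found for 9 of the 10 members, all but Fbxo32. A match is a description of these letters and not a site shown to be used.
Trim63: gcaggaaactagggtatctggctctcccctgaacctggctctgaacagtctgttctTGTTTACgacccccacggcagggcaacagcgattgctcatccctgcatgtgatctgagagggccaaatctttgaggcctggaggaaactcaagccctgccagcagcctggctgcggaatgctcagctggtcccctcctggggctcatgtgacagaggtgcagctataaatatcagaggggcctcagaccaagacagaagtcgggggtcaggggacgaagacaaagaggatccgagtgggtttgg

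Fbxo30 (MUSA1), an F-box protein known as a ligase of denervated muscle, was dim and even. Its values were 231, 229, 269 and 278 in controls and 264, 232, 222 and 249 in Hira CKO. The groups overlapped, with −0.05 log2 (SE 0.0899, 95% interval −0.25 to 0.15, limma adjusted p 0.718). For this probe the SD between the arrays of an animal (median 0.118 log2) was as large as that between animals (0.122 log2). Fbxo40, a muscle F-box protein known to act on the insulin receptor substrate Irs1, was at 1334, 1277, 1215 and 1384 in controls. Hira CKO values were 1088, 1105, 1582 and 1142, so that 3 knockout animals lay below every control and animal 3 above every control. The difference was −0.10 log2 (SE 0.117, 95% interval −0.37 to 0.16, limma adjusted p 0.569). It was −0.23 log2 (adjusted p 0.0721) without animal 3, but −0.05 (0.813) without Hira CKO animal 1 and −0.06 (0.79) without Hira CKO animal 2. The 3 arrays of Hira CKO animal 3 read 1317, 1562 and 1869, the widest spread of any animal at this probe.

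The transcription factor genes did not separate the groups. Foxo1 was at 1128, 1155, 867 and 1808 in controls and at 1775, 1426, 1529 and 960 in Hira CKO. Each group thus held 1 animal apart from its other 3, high among controls and low among knockouts. The means were 1240 ± 400 and 1422 ± 341, with a difference of 0.21 log2 (SE 0.23, 95% interval −0.30 to 0.72, limma adjusted p 0.554). Single animals moved it: it was 0.06 without control animal 3, 0.09 without Hira CKO animal 1, 0.41 without control animal 4 and 0.39 without Hira CKO animal 4. Foxo3 was dim, at 168, 187, 231 and 243 in controls and 170, 240, 213 and 226 in Hira CKO. Its difference was 0.03 log2 (SE 0.134, 95% interval −0.27 to 0.33, limma adjusted p 0.915).

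**Figure D2:**
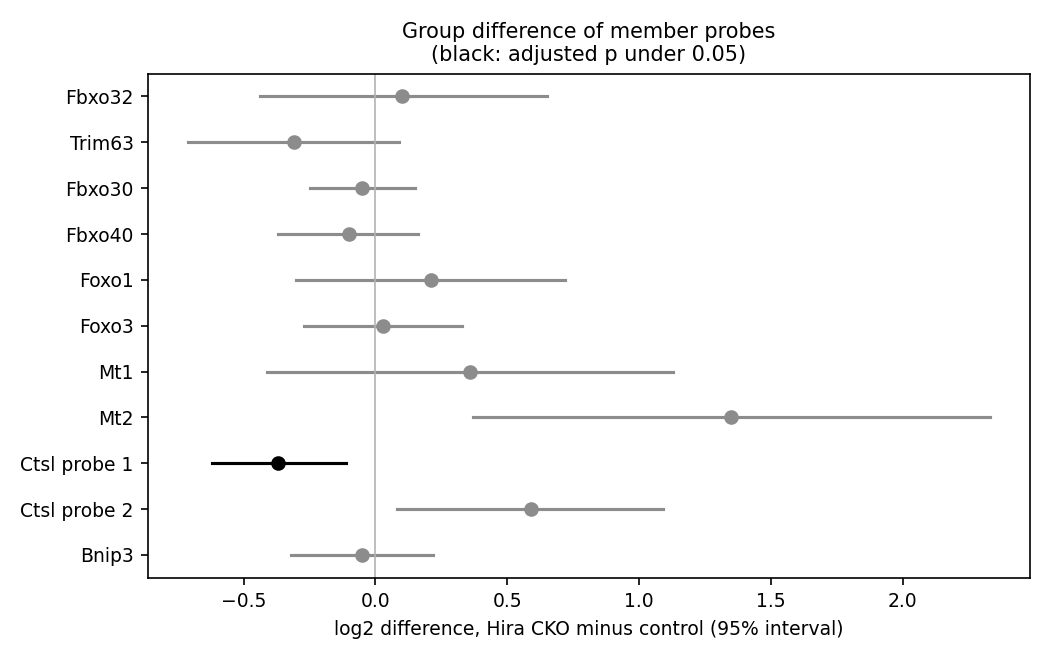
Log2 difference of each member probe, Hira CKO minus control, with its 95% interval from limma (n = 4 animals per group). The interval of Ctsl probe 1 (−0.62 to −0.11) belongs to the probe that was called; those of Mt2 and Ctsl probe 2 also lie off 0 but belong to probes that were not called after adjustment.

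The metallothionein genes Mt1 and Mt2 are neighbours on chromosome 8 in the RefSeq gene order and are known to be induced together through metal response elements, which bind the zinc-sensing factor Mtf1. Their windows are shown because of this known regulation. The core of the element was searched as TGCACNC or TGCGCNC on both strands, and capitals mark the matches. Mt1 (chr8:94178839-94179138, plus strand) held 3 and Mt2 (chr8:94172368-94172667, plus strand) held 4, none overlapping another. Counted with the start base as 0, the Mt1 matches began at −23, 2 and 20. Those of Mt2 began at −223, −128, −50 and 4. The matches that began at 2, 20 and 4 thus lay after the start and not before it. At least 3 matches were found in 1.97% of all windows and at least 4 in 0.517%. Of the other members' windows, that of Foxo3 held 1 match and the rest 0, where 25.7% of all windows held at least 1. These matches too are not sites shown to be used, and whether they bear on the levels of Mt1 and Mt2 was not tested.
Mt1: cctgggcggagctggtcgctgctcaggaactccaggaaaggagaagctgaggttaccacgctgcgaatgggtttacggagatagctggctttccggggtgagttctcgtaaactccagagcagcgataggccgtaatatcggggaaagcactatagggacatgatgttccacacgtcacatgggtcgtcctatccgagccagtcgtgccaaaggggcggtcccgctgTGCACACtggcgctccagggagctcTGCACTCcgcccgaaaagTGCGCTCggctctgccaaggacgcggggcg
Mt2: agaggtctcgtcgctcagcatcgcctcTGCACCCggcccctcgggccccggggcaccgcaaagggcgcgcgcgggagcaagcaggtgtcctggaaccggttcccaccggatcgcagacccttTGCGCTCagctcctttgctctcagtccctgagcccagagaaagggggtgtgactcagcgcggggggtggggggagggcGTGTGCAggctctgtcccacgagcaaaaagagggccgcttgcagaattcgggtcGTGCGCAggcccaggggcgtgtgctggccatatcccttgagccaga

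Mt2 was at 3582, 2539, 5353 and 9662 in controls and at 7365, 12893, 24178 and 8749 in Hira CKO. Control animal 4 was the only control within the knockout range. The means were 5284 ± 3142 and 13296 ± 7625, and the difference of 1.35 log2 (SE 0.439, 95% interval 0.37 to 2.33) narrowly missed the threshold (limma adjusted p 0.0549, exact permutation p 0.0857). Without control animal 4 it was 1.70 log2 and was called (adjusted p 0.0192), the only 1 of the 8 fits without an animal to call it. It was 1.06 log2 (adjusted p 0.128) without control animal 2 and 1.01 log2 (0.116) without Hira CKO animal 3. The arrays of an animal agreed closely at this probe, with a median SD of 0.046 log2, against 0.794 log2 between animals of a group.

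Mt1 was at 20132, 13708, 19580 and 28953 in controls. It was at 16323, 22699, 55485 and 21343 in Hira CKO, where animals 1, 2 and 4 lay within the control range and animal 3 stood far above it. The means were 20593 ± 6286 and 28962 ± 17893, and the difference of 0.36 log2 (SE 0.346, 95% interval −0.41 to 1.13) was not called (limma adjusted p 0.492). Without Hira CKO animal 3 it was −0.0031 log2.

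The probes of Mt1 and Mt2 were set against each other within animals, a comparison added after their values had been seen. The log2 value of the Mt2 probe minus that of Mt1 was −2.48, −2.42, −1.87 and −1.58 in controls and −1.15, −0.81, −1.18 and −1.27 in Hira CKO. The groups did not overlap, and every knockout lay above every control. The mean moved from −2.09 ± 0.43 to −1.10 ± 0.20 (SD, n = 4), a shift of 0.99 log2. The two-sided exact permutation p was 0.0286, the smallest that 70 assignments of 8 animals can give. Dropping 1 animal at a time gave 0.86 to 1.15 log2, and the exact permutation p was 0.0571 without any 1 of the Hira CKO animals. Fewer assignments exist with 1 animal left out, where the smallest permutation p is again 0.0286 and the next is 0.0571. Mt1 and Mt2 have similar sequences and where the probes lie was not given, so the share of each signal that comes from the other gene was not tested.

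**Figure D3:**
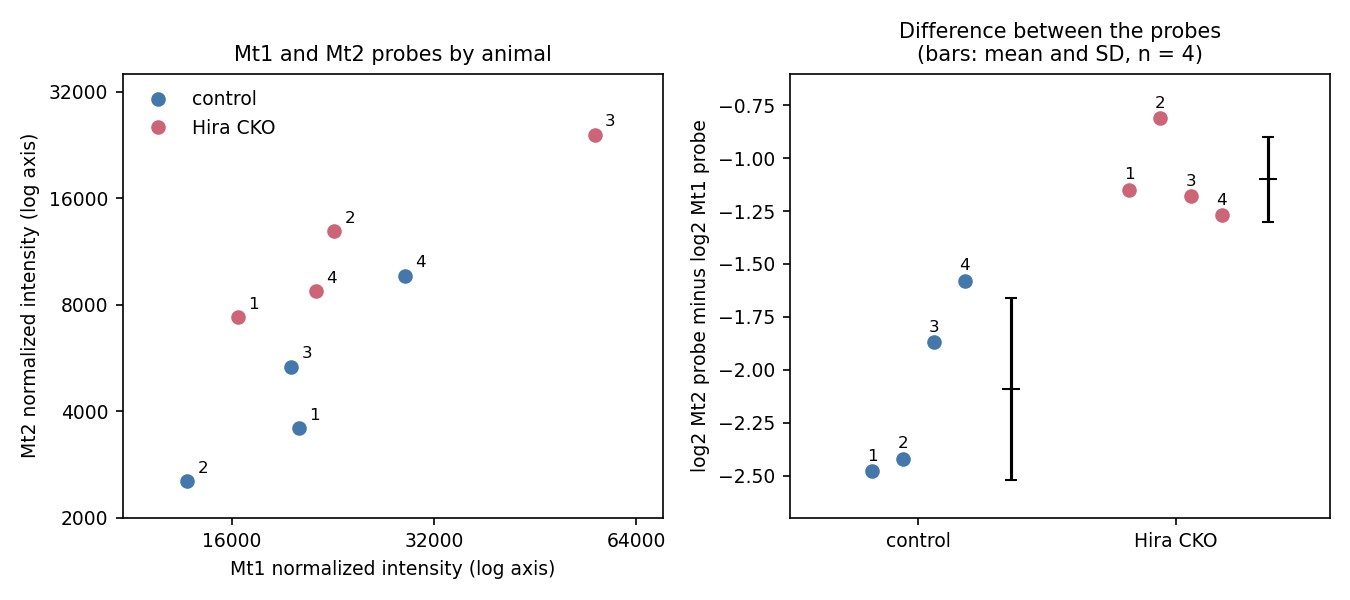
Left, Mt2 against Mt1 normalized intensity in each animal (both axes logarithmic); right, the log2 difference between the Mt2 and Mt1 probes by group, with mean and SD (n = 4). Animals high for Mt1 are high for Mt2, and at a like Mt1 level the Hira CKO animals lie above the controls.

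Ctsl encodes cathepsin L, a lysosomal protease that is a Foxo target in wasting muscle and is also abundant in macrophages. Its brighter probe (probe 1) was at 11190, 9027, 11773 and 12493 in controls and 8147, 10000, 8380 and 7837 in Hira CKO. Control animal 2 lay inside the knockout range and the other 3 controls above it. Probe 1 fell by 0.37 log2 (SE 0.116, 95% interval −0.62 to −0.11, limma adjusted p 0.0493), from 11121 ± 1494 to 8591 ± 965. The call was lost without control animals 1, 3 or 4 or Hira CKO animals 1, 3 or 4 (adjusted p 0.0869 to 0.121), and the exact permutation p was 0.0571.

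The dimmer Ctsl probe (probe 2) went the other way. It was at 1020, 989, 582 and 1168 in controls and 1204, 1326, 1307 and 1284 in Hira CKO. Every knockout lay above every control, with a difference of 0.59 log2 (SE 0.228, 95% interval 0.08 to 1.09) that was not called (limma adjusted p 0.0968, exact permutation p 0.0286). The 3 arrays of control animal 3 read 1130.7, 372.8 and 242.2, and 1 array of control animal 2 read 484.8. Over single arrays the groups overlapped, at 242 to 1316 in controls and 1015 to 1452 in Hira CKO. Without control animal 3 the difference was 0.31 log2 (adjusted p 0.0672).

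Within animals, probe 2 minus probe 1 shifted by 0.95 log2 between the groups (exact permutation p 0.0286), from −3.68 ± 0.61 to −2.73 ± 0.13 (SD, n = 4). The 2 probes of Ctsl thus differed in their group difference by more than the spread between animals, also without control animal 3 (0.65 log2, exact permutation p 0.0286). With that animal left out fewer assignments exist, and 0.0286 is again the smallest permutation p possible. The exact permutation p was 0.0571 without Hira CKO animal 4, without array repeat 1 and with the median in place of the mean of the 3 arrays. The values do not give 1 direction for the gene. Of 7 listed macrophage markers 6 were measured and 0 were called, and their summed intensity ran from 9303 to 13069 in controls and from 10151 to 14612 in Hira CKO, with none under an intensity of 50 in every animal. The part of macrophages in the Ctsl signal was not tested.

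**Figure D4:**
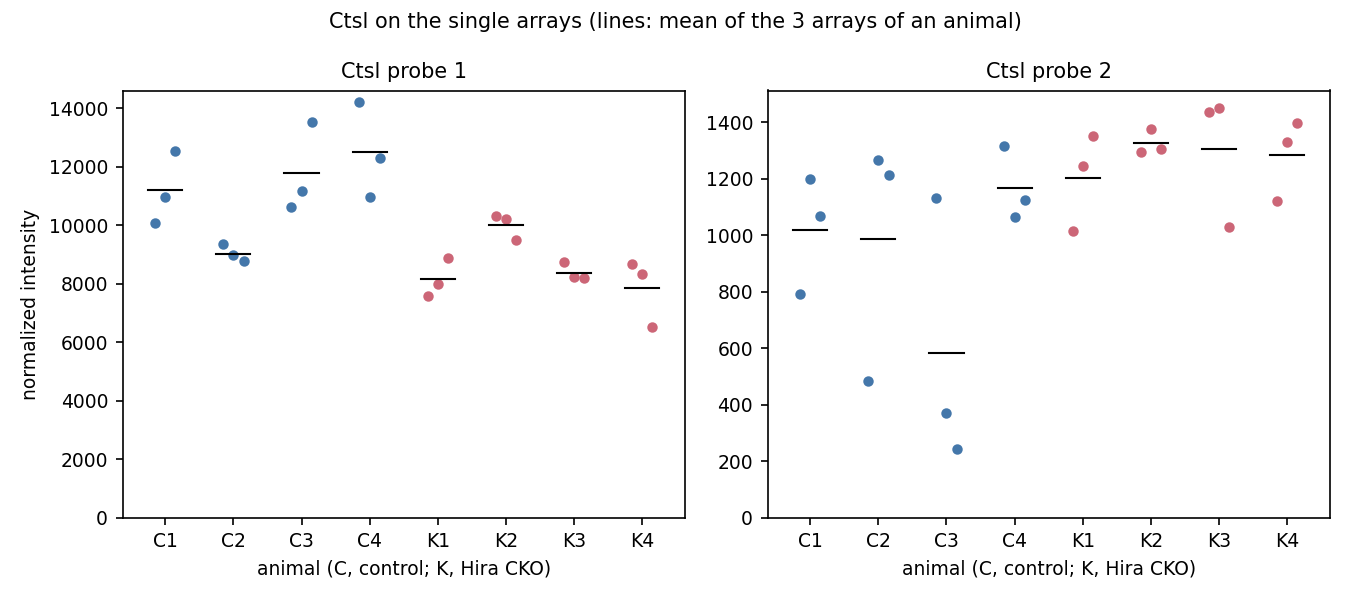
Normalized intensity of both Ctsl probes on each of the 24 arrays, by animal (C1 to C4, controls; K1 to K4, Hira CKO), with lines at the mean of the 3 arrays of an animal. At probe 2 the lowest readings, 242.2, 372.8 and 484.8, come from controls 3 and 2, whose remaining arrays lie above 1100.

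Bnip3, a mitochondrial outer membrane protein that marks mitochondria for autophagy and is induced by Foxo3 and hypoxia, was at 2432, 1897, 2489 and 2343 in controls. It was at 2215, 2508, 2335 and 1807 in Hira CKO, and both groups spanned the same range. The difference was −0.05 log2 (SE 0.12, 95% interval −0.32 to 0.22, limma adjusted p 0.801).

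Several members were high or low in the same animals. At the brightest probe of each gene, control animal 4 had the highest control value for 9 of the 10 genes, all but Bnip3. Control animal 2 had the lowest for 7, namely Fbxo32, Trim63, Fbxo30, Mt1, Mt2, Ctsl and Bnip3. Among knockouts, animal 3 was highest for Fbxo32, Trim63, Fbxo40, Mt1 and Mt2, and animal 1 was lowest for Trim63, Fbxo40, Foxo3, Mt1 and Mt2. How often these animals were highest or lowest over all probes was not computed, so this order is not shown to be particular to the members. Of these genes, Fbxo32 and Trim63 are known to rise in fasting and glucocorticoid excess, and metallothioneins are known to be induced by glucocorticoids. Feeding state, time of collection and stress hormones were not given in the labels, so their part was not tested.

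Correlations were computed for all 45 pairs of members over the 8 animals, and r was above 0 for 37 of them, with a median of 0.27. The share of positive pairs among other genes was not computed. No pair passed after Benjamini-Hochberg adjustment over the 45 (exact permutation of pairings, lowest adjusted p 0.279). Mt1 and Mt2 had an r of 0.84 (exact permutation p 0.00742, adjusted 0.279) and a rho of 0.88 (exact permutation p 0.00724), but r was 0.44 without the 2 animals farthest from the Mt1 median. As deviations from the group mean their r was 0.91 (exact permutation within groups p 0.00347, adjusted 0.156). Trim63 and Fbxo40 had an r of 0.83 and a rho of 0.86 (exact permutation p 0.0124 and 0.0107), and r was 0.78 without the 2 farthest animals. Fbxo32 and Trim63, known as the common pair of atrophy ligases, had an r of 0.54 and a rho of 0.76 (exact permutation p 0.181 and 0.0368), and r was 0.70 without the 2 farthest animals.

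Trim63 followed Mt1 more closely within groups (r 0.96, exact permutation p 0.00694, adjusted 0.156) than over all 8 animals (r 0.63, exact permutation p 0.08). Fbxo32 and Mt1 had an r of 0.74 (exact permutation p 0.0457) and a rho of 0.62 (exact permutation p 0.115), and r was 0.91 without the 2 farthest animals. Fbxo32 and Bnip3 had an r of 0.77 (exact permutation p 0.0317) and a rho of 0.40 (exact permutation p 0.327), and r was −0.33 without the 2 farthest animals, so that relation rested on control animal 2 and Hira CKO animal 4. Foxo1 had an r of 0.45 with Fbxo32 (rho 0.33, exact permutation p 0.269 and 0.428) and −0.05 with Trim63 (rho 0.05, exact permutation p 0.897 and 0.935). Foxo3 had an r of 0.23 with Fbxo32 (rho 0.24, exact permutation p 0.603 and 0.582) and 0.39 with Trim63 (rho 0.48, exact permutation p 0.322 and 0.243). Foxo1 and Foxo3 had an r of −0.06 (rho 0.05, exact permutation p 0.89 and 0.935).

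Over the same 8 animals, the named genes whose probes were most like each member were found among 15227 probes above the lowest 30%. For Fbxo32 they were Ccni (Pearson r 0.972) and Fh1 (0.947), and for Trim63 Helq (0.953) and Nsun6 (0.951). Mt1 was closest to Eml1 (0.947) and Pdcl3 (0.947), and Mt2 to Nek9 (0.971) and Dnaja4 (0.964). Fbxo40 was closest to Spag9 (0.969) and 0610030E20Rik (0.963), Fbxo30 to Ccdc68 (0.967) and Nhsl2 (0.945), Foxo1 to Gm9791 (0.954) and Lrrtm3 (0.943), and Foxo3 to Senp3 (0.950) and Plekhm3 (0.946). Bnip3 was closest to Itga1 (0.958) and Pik3ip1 (0.952). Probe 1 of Ctsl was closest to Dhx35 (0.990) and Kiz (0.974), and 84 of the probes searched passed an r of 0.9 with it, against 5 to 40 for the other members. With 8 animals and this many probes a high r is common, and the values are a description.

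**Figure D5:**
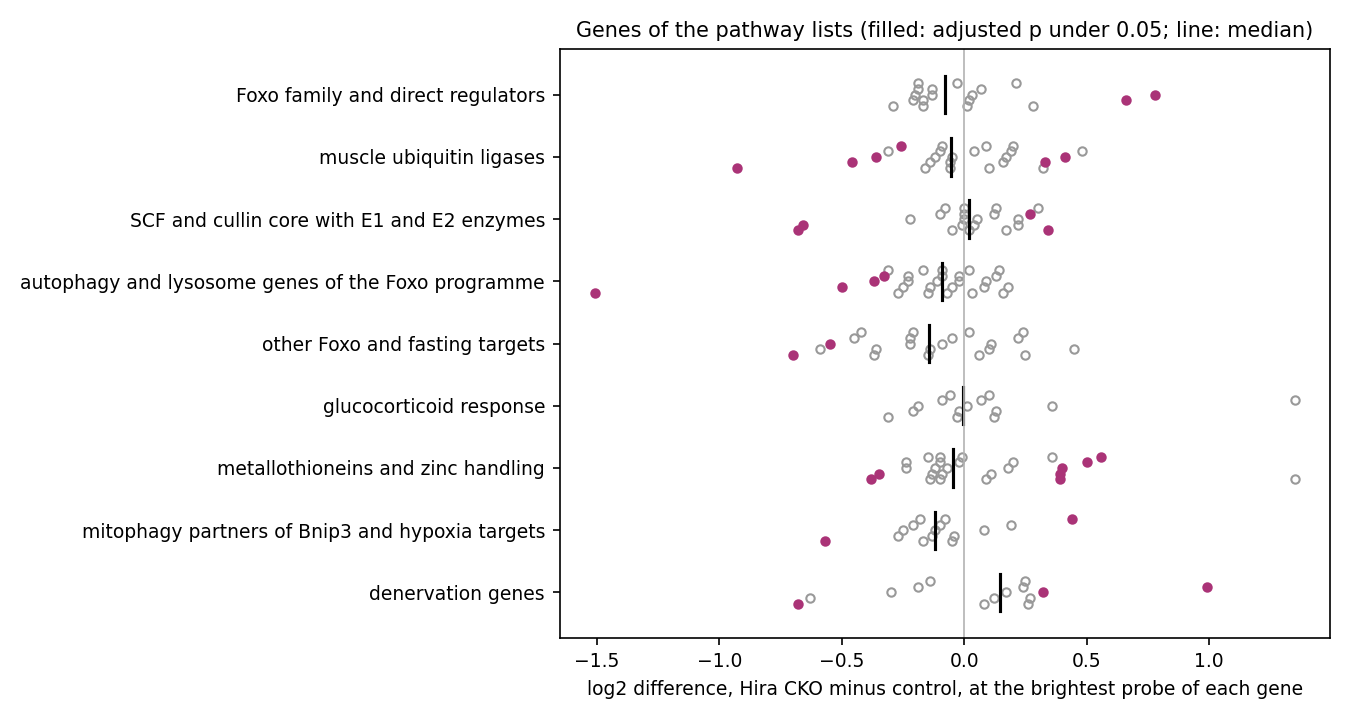
Log2 difference, Hira CKO minus control, of every measured gene of 9 pathway lists at its brightest probe. Filled points were called (limma adjusted p under 0.05), open points were not, and lines mark medians, which run from −0.14 to 0.14.

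The genes around the members in the pathway were described by lists, each gene at its brightest probe. Over all 17742 genes 10.99% were called higher and 10.2% lower at that probe, and the median difference was 0.008 log2. Of 24 measured muscle ubiquitin ligases, the 4 members among them, 2 rose and 4 fell, with a median of −0.05 log2. Ubr4, a ligase of the N-degron pathway, fell by 0.93 log2, from 4321 ± 308 to 2273 ± 218 (limma adjusted p 0.000116). Wwp1, a HECT ligase, fell by 0.46 log2, Trim72, a membrane repair protein also described as a ligase, by 0.36 log2, and Trim32, named after its value was seen, by 0.26 log2. Klhl41, a muscle kelch protein that stabilizes nebulin, rose by 0.41 log2, from 48766 ± 1987 to 65008 ± 2523 (limma adjusted p 0.00265). Nedd4l, named after its value was seen, rose by 0.33 log2, with its second probe called at 0.54 log2. When each of the 8 animals was dropped in turn, Trim72 missed the threshold 4 times, Trim32 6 times and the brighter Nedd4l probe 7 times, and 1 to 2 ligases rose and 2 to 4 fell.

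Of 21 measured genes of the cullin scaffold and the E1 and E2 enzymes, 2 rose and 2 fell (median 0.02 log2). Cul5 fell by 0.66 log2, from 9403 ± 285 to 5946 ± 338, and the E2 gene Ube2d1 by 0.68 log2, from 15197 ± 1362 to 9599 ± 1700. Cul2 rose by 0.34 log2, with a second probe at 0.07 that was not called, and Ube2d3 rose by 0.27 log2 at each of its 2 probes. With 1 animal dropped, 1 to 3 rose and 2 fell. The SCF scaffold genes Cul1, Skp1 and Rbx1, with which Fbxo32 works, were among those not called.

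Of 18 measured genes of the Foxo family and its direct regulators, 2 rose and 0 fell (median −0.08 log2). Akt2 was listed but not measured. Akt1, a kinase that keeps Foxo factors in the cytoplasm, rose by 0.78 log2, from 3338 ± 363 to 5708 ± 506 (limma adjusted p 0.00061). Ep300, an acetyltransferase that acts on Foxo proteins, rose by 0.66 log2, from 1208 ± 62.8 to 1925 ± 98.5 (limma adjusted p 0.000246). Both stayed past the threshold whichever of the 8 animals was dropped, and 0 to 1 gene of the list fell. Transcript levels do not show the phosphorylation or the place of Foxo proteins in the cell.

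Of 27 measured autophagy and lysosome genes, Ctsl and Bnip3 among them, 0 rose and 4 fell (median −0.09 log2). Ctsb, cathepsin B, fell by 1.51 log2, from 14288 ± 1383 to 5110 ± 780 (limma adjusted p 4.55e-05), while its second probe was at 0.02 log2 and was not called. Wipi1, which works in forming the autophagosome, fell by 0.50 log2 and Ulk2, a kinase that starts autophagy, by 0.33 log2. The fourth was Ctsl through probe 1. Wipi1 and Ulk2 each missed the threshold 4 times when the 8 animals were dropped in turn, and the number of falls ran from 1 to 5.

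Of 22 other Foxo and fasting targets, 0 rose and 2 fell (median −0.14 log2). Ccng2, a cyclin gene known as a Foxo target, fell by 0.70 log2, from 4443 ± 634 to 2741 ± 483. Txnip, a thioredoxin inhibitor gene that responds to glucose, fell by 0.55 log2, but missed the threshold 5 times when the 8 animals were dropped in turn. Of 14 glucocorticoid response genes, Mt1 and Mt2 among them, 0 rose and 0 fell in limma (median −0.00 log2). With 1 animal dropped there was 0 to 1 rise and 0 to 1 fall in that list and 0 to 1 rise and 1 to 3 falls among the fasting targets.

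Of 26 measured genes of metallothioneins and metal handling, 5 rose and 2 fell (median −0.05 log2). Mtf1, the factor that binds metal response elements, rose by 0.56 log2, from 902 ± 40.6 to 1339 ± 104 (limma adjusted p 0.00101), although its second probe was at −0.12 log2 and was not called. The zinc importer gene Slc39a1 rose by 0.50 log2, from 3463 ± 30.8 to 4935 ± 474. The copper importer gene Slc31a1 rose by 0.40 log2, but missed the threshold 6 times when the 8 animals were dropped in turn. Mt4, a metallothionein known from stratified epithelium, rose by 0.39 log2 at a dim probe, from 47.7 ± 3.88 to 67.5 ± 7.8. Of the genes named after their values were seen, Slc39a7 rose by 0.39 log2, and Slc39a3 and Slc39a10 fell by 0.38 and 0.35 log2. Both of these falls missed the threshold 6 times when the 8 animals were dropped in turn. With 1 animal dropped 4 to 6 genes rose and 0 to 2 fell.

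Of 15 measured mitophagy and hypoxia genes 1 rose and 1 fell (median −0.12 log2). Bcl2l1, an anti-apoptotic partner of Bnip3, fell by 0.57 log2, from 1492 ± 42.2 to 1007 ± 175. Egln3, an oxygen-sensing hydroxylase gene, rose by 0.44 log2, but missed the threshold 6 times when the 8 animals were dropped in turn, with 0 to 2 rises and 1 to 2 falls in the list. Of 14 measured denervation genes 2 rose and 1 fell (median 0.14 log2). Sln, sarcolipin, rose by 0.99 log2, from 483 ± 71.3 to 981 ± 170, and Runx1 rose by 0.32 log2, with its second probe called at 0.63 log2. The brightest Runx1 probe missed the threshold 7 times when the 8 animals were dropped in turn, and the list held 1 to 2 rises and 1 to 2 falls. Chrng, the fetal acetylcholine receptor subunit that rises on denervation, fell by 0.68 log2, from 815 ± 113 to 531 ± 76.

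Of the other cell types, endothelial markers had 2 of 5 called lower, Kdr (−0.60 log2) and Pecam1 (−0.36 log2, past the threshold for 2 of the 8 ways to drop an animal). Over all genes 10.2% were called lower. The rest of the 5 were not called, and the list ran from −0.60 to 0.11 log2. The other 2 Pecam1 probes were at −0.21 and −0.22 log2 and were not called. The summed intensity of the endothelial markers ran from 28322 to 32801 in controls and from 24520 to 28025 in Hira CKO. Markers of fibroblasts and progenitors (5 measured), satellite cells (4), adipocytes (5), red blood cells (2) and Schwann cells (2) had 0 calls. Their part in the members' values was not tested.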

How the data were processed

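Total RNA of tibialis anterior from 8 mice was measured on 24 arrays, 3 per animal. The deposited values are linear intensities. Array medians of 431.5 to 433.5 show that they were normalized between arrays before deposit. Of the values, 50 were at or below 0, and whether background was subtracted is not stated. Scanner and software are not given in the sources used here, nor are detection calls, slide or scan date. Groups and array batches thus cannot be told apart. Precision is limited by the number of animals. Nothing in the labels says whether animals shared a litter.

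The planned test needed log2 values: values below 0 were set to 0, 16 was added and log2 taken. Arrays of 1 animal were averaged on this scale. The group difference was fitted in limma 3.58.1 (lmFit, eBayes; R 4.3.3), with Benjamini-Hochberg adjustment over all 26423 probes. Single probes were also tested by a two-sided exact permutation over 70 assignments. Symbols came from the platform annotation (20377 probes with 1 symbol, 6046 unnamed here) and were updated with RefSeq on GRCm38.p6, also the source of promoter windows.

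The members, lists, alternatives and the rule for named genes were chosen with earlier results of these data known. The rule took all member probes, up to 4 called genes with the largest change per list, and the 2 genes most like each member. The brightest probe of a gene had the highest mean log2 level over all arrays. Lists were not tested as sets. The alternatives were other pseudocounts, normalizations, array averages, variance models and thresholds, a filter on dim probes, the animal number as a block, and each animal or array repeat left out. The fit was tested on data simulated for 26423 probes. It recovered 46.3% of 67 simulated differences of 0.5 log2, 92.5% of 67 of 1 log2 and 100% of 66 of 2 log2. Far fewer probes were changed in the simulation than the 5432 called in the data. Adjustment is stricter with fewer changes, so these shares are not those of the reported fit. A probe that was not called is not shown to be unchanged.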

Additional observations from a re-analysis of the deposited data

Results flagged for a closer look

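In groups of 4 animals, the highest or lowest animal was checked for its gap to the nearest other animal as a share of the group's range on the log2 scale. Over the 22 groups of the 11 member probes, 1 passed Dixon's 95% critical value for 4 samples, where about 1 in 20 groups would by chance. It was Fbxo40 in Hira CKO, where animal 3 stood above the other 3 with a gap of 0.880 of the range (1582 against 1088 to 1142). The same animal had the highest knockout value for Fbxo32, Trim63, Mt1 and Mt2, with gaps that did not pass the limit.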

How the results depend on the processing

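Of 26423 probes, 5432 were called in the reported fit, 3680 to 5133 in the 8 fits that left out 1 animal, 4268 to 7762 in the other alternatives, and 2409 at an adjusted p under 0.01. Of the member probes, the number called higher was 0, and 1 (Mt2) in the fit on 24 arrays with the animal as a random block, with the animal number as a replicate block and without array repeat 3. It was 2 at an adjusted p under 0.10 and 0 to 1 without 1 animal. The number called lower, 1 as reported, was 0 with a pseudocount of 1, with cyclic loess, with the median of the 3 arrays, with the animal number as a replicate block, with array weights, at an adjusted p under 0.01 and without any 1 array repeat. It was 0 to 1 without 1 animal. With the replicate block 4925 probes were called, Mt2 passed (adjusted p 0.0483) and Ctsl probe 1 did not (0.1). Same-numbered animals of the groups correlated at 0.296, 0.093, −0.064 and 0.067 in their deviations from the group mean. The value of 0.296, for the animals numbered 1, was the highest of any pair, but not every animal correlated best with its own number. These values cannot say whether same-numbered animals shared a litter or a batch, and that was not tested.

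Differences that were not called changed sign in some settings. Over the fits without 1 animal, Fbxo32 ran from −0.14 to 0.25, Foxo3 from −0.06 to 0.12 and Mt1 from −0.0031 to 0.58. Fbxo32 was at −0.14 without control animal 2 and −0.05 without Hira CKO animal 3, Fbxo30 at 0.02 without array repeat 3, Mt1 at −0.0031 without Hira CKO animal 3, and Bnip3 at 0.04 without Hira CKO animal 4. Foxo3 was at −0.03 with array weights, −0.05 without array repeat 1, and −0.06 and −0.01 without control animals 1 and 2, and −0.04 and −0.0021 without Hira CKO animals 2 and 4. The shift between the Ctsl probes stayed at 0.65 to 1.08 log2 in every setting run, with an exact permutation p of 0.0571 with the median of the 3 arrays, without array repeat 1 and without Hira CKO animal 4. That between Mt2 and Mt1 stayed at 0.86 to 1.15 log2, with an exact permutation p of 0.0571 without any 1 Hira CKO animal. The count of member pairs that passed was 0 in all 17 alternatives. The causes were not tested.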
